A study of Mus musculus with 10 samples.

Results

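The 44 genes described here were the protein-coding genes of the matrix whose symbol starts with Psm, a letter from a to g and a number. They were 44 of 15899 genes measured, and of 12288 protein-coding genes. The name pattern took in the 7 alpha and 7 beta subunits of the 20S core particle, 17 subunits of the 19S regulatory particle (9 of its base and 8 of its lid), 5 activator and inhibitor genes, 7 assembly chaperones and Psmc3ip. Psmc3ip is named after a partner of a proteasome subunit, encodes a factor of meiotic recombination and is not itself a subunit. Psma8, the subunits Psmb8 to Psmb11 (among them the inducible subunits of the immunoproteasome) and Psme2b were not analysed here.

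The RNA came from anti-FLAG pulldowns (RIP-seq) of neurosphere cultures, which hold adult neural stem and progenitor cells grown from the subependymal zone of the brain of 10-week-old mice. In FLAG cultures (Mex3aFLAG/FLAG) the endogenous RNA-binding protein MEX3A carried a FLAG tag at its C-terminus, and WT cultures (Mex3a+/+) of the same background carried no tag, so that their libraries measure what the antibody and beads retain without it. The 10 libraries were 2 FLAG and 2 WT after formaldehyde crosslinking, and 3 FLAG and 3 WT in native conditions. RNA before the pulldown was not analysed here, so that a higher value in the pulldown cannot be told apart from more of that RNA in the culture, nor fewer cells of a type from less RNA per cell. All cultures grew in EGF and FGF, and the labels do not say how many animals each came from.

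The proteasome degrades proteins that carry a ubiquitin chain. Its core is a barrel in which Psmb5, Psmb6 and Psmb7 hold the chymotrypsin-like, caspase-like and trypsin-like sites, and the regulatory particle caps the barrel: its base unfolds substrates with the ATPases Psmc1 to Psmc6, and its lid removes the chain with the deubiquitinase Psmd14. MEX3A belongs to a family of KH-domain proteins that bind mRNA, mostly in the 3' UTR, and whose nematode founder reads a bipartite motif, the MEX-3 recognition element (MRE). The comparisons asked whether mRNAs of this machine came down with tagged MEX3A, whether core and regulatory particle differed, and how the pulldown protocol changed their levels.

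Fewer of these genes than of coding genes in general held a match of the MRE, and their 3' UTRs were shorter. The element was read as a first part ending in AG, a gap of at most 8 bases and a second part that starts with T and ends in TA, on the sense strand, with overlapping matches counted each. Where a gene has several annotated 3' UTRs the longest was searched (GENCODE M21, GRCm38). In all, 22 of 44 members (50.0%) held a match, against 77.2% of 12108 coding genes of the matrix with a 3' UTR. The median 3' UTR was 295 bases in the members and 1261 bases in the coding genes, and the density of matches was 2.56 per kb against 2.80 per kb. In the other form of the second part, T to AT, 18 members (40.9%) held a match against 76.8% of coding genes. The 19S base had 1 gene with a match among 9 and the alpha ring 6 among 7. The sites below are the matches nearest to the stop codon in the 7 members with 5 or more matches; capitals mark the parts of the element, and lower case the gap and 5 flanking bases on either side.

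Psma2 (9 matches), chr13:14625587-14625606, plus strand: caattTTAGttTTTAagagt
Psma3 (8 matches), chr12:70994851-70994876, plus strand: gtgtgGTAGtacatgccTTTAatcct
Psmc6 (5 matches), chr14:45349117-45349138, plus strand: ttggaTTAGtaagTATAtgatt
Psmd5 (8 matches), chr2:34852203-34852222, minus strand: cttggGTAGtcTCTAaaaaa
Psmd10 (6 matches), chrX:140949236-140949259, minus strand: ctcaaGGAGcaagtaTTTAcattg
Psme3 (5 matches), chr11:101321988-101322011, plus strand: tgtttTTAGttagagTCTAatgaa
Psmf1 (8 matches), chr2:151717643-151717665, minus strand: aatctGTAGaattaTCTAgatat

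These 7 genes did not stand apart in the pulldown. Over all libraries the median of their log2 fold changes (FLAG minus WT) was 0.14 (range -0.14 to 0.56), against 0.10 for the 22 members with a match and 0.15 for the 22 members with none. A match is a string of letters, and its absence says only that the letters are not in the annotated 3' UTR.

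The values are normalized log2 values as deposited, with nearly the same distribution in each library (median 2.88 to 2.89), so that the depth of each library is unknown and a value is relative to the other genes of its library. Mex3a mRNA itself stood at 3.92 and 4.16 in the crosslinked FLAG libraries against 2.75 and 3.03 in WT, and at 5.95, 4.03 and 6.10 in the native FLAG libraries against 3.33, 3.52 and 2.89 in WT; the FLAG values were higher without overlap in both protocols, with an adjusted p of 0.0789 over all libraries (limma). FLAG native replicate 2, which had the lowest Mex3a value of the native FLAG libraries, also had the lowest quality weight of the 10 libraries (0.189; the next was FLAG native replicate 1 with 0.33). The 6 neural stem and progenitor markers used here (Nes, Sox2, Vim, Fabp7, Egfr, Olig2) were all measured, at a summed log2 level of 10.74 to 10.82 in the crosslinked and 10.99 to 11.33 in the native libraries. The summed level of the 2 measured neuronal markers (Rbfox3, Snap25) was 3.16 to 4.05 in FLAG and 4.59 to 4.96 in WT libraries. The 3 measured astrocyte markers (Aldoc, Aqp4, Slc1a3) stood at 8.04 to 8.51 in native FLAG and 8.59 to 8.85 in native WT libraries. With crosslinking, FLAG and WT were also apart for the endothelial markers Kdr and Pecam1 (0.21 to 0.52 against 1.16 to 1.34) and for Foxj1 of ependymal cells (0.57 to 0.64 against 0.01 to 0.23), and the 3 microglial markers overlapped in both protocols. The part of these differences in the results was not tested.

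**Figure D1:**
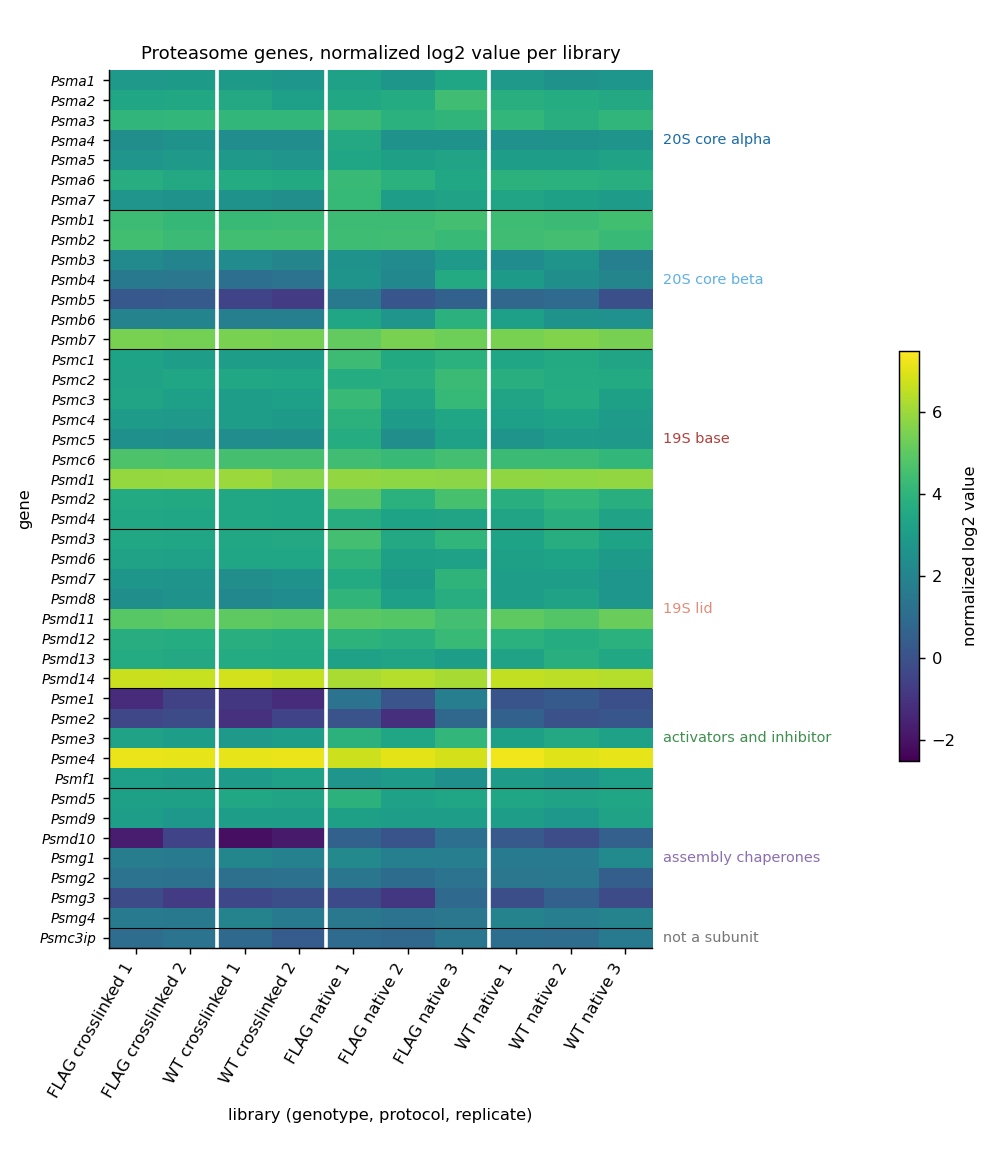
Normalized log2 value of the 44 genes (rows, by particle) in the 10 libraries (columns, grouped by genotype and protocol). Psme4, Psmd14, Psmd1 and Psmb7 are the brightest rows in every library, and Psme1 and Psmd10 are darker in the crosslinked than in the native libraries.

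The members spanned a wide range of levels, with catalytic genes near both ends. The giant activator Psme4 (PA200) had the highest mean over the 10 libraries, 7.07, followed by Psmd14 at 6.50, the base scaffold Psmd1 at 5.86 and the trypsin-like subunit Psmb7 at 5.42. The lowest were the base chaperone Psmd10 (gankyrin) at -0.35, the activator genes Psme2 at -0.16 and Psme1 at -0.04, the core chaperone Psmg3 at -0.13 and the chymotrypsin-like subunit Psmb5 at 0.34. Levels of different genes need a length to divide by, and the order of the catalytic genes depended on which was used. Per kb of exon the log2 level was 0.49 for Psmb5, 1.69 for Psmb6 and 3.65 for Psmb7, while per kb of gene body it was -1.62, 1.28 and -0.39, so that Psmb7 was the highest on the first scale and Psmb6 on the second, with Psmb5 the lowest on both. Psme4 and Psmd14 stayed high per kb of exon, at 4.00 and 5.01, together with the beta subunit Psmb2 at 4.14, and Psmg3 and Psme1 were the lowest, at -1.66 and -1.18.

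The levels followed the length of the whole gene, introns included. Psme4 (chr11:30771726-30880361, plus strand) spans 108636 bp and Psmd14 (chr2:61711694-61800376, plus strand) 88683 bp, of which 3.2% is exon in Psmd14, whereas Psmb6 (chr11:70525367-70527858, plus strand) spans 2492 bp and is 75.1% exon. Over the 44 genes, Spearman's rho of the mean log2 level with the gene body was 0.76 and with the exonic length 0.58; over 12276 coding genes of the matrix the values were 0.60 and 0.52. These are descriptions across genes measured in the same libraries. Divided by the length of the gene body in kb, the log2 levels of Psme4 and Psmd14 were 0.31 and 0.03, and those of Psmb6 and Psmb4, both among the shortest genes, were 1.28 and 0.62. RNA was not selected for poly(A) in this library preparation, and reads from introns and exons cannot be told apart in the deposited values.

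Reads of several members are shared with near copies. Of the 75-base windows along the longest annotated transcript, 51.7% of Psme2 were also found in other genes (chiefly Psme2b), 40.0% of Psmb5 (Gm3375) and 39.8% of Psma5 (Gm8394). The share was 21.3% in Psma3, 14.9% in Psmd2 (Gm5422) and 12.9% in Psma4 (Gm6542), so that the counting could split or drop reads of these genes. Exons of the same strand, chiefly Mir686, overlap 12.1% of Psmb5. Exons of the opposite strand overlap 25.5% of Psmd9, 21.2% of Psmc3ip, 11.8% of Psmb7 and 10.1% of Psmd13, and the sources do not say whether strand was used in counting.

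With crosslinking, FLAG and WT pulldowns held nearly the same level of proteasome mRNAs. No member of 44 was called (adjusted p under 0.05 and a log2 fold change over 0.58 in either direction, limma with Benjamini-Hochberg over all genes), and neither was any of the 15899 genes (0%). The median log2 fold change of the members was 0.02, with 23 of 44 above 0 (46.3% of all genes), and over all genes -0.02. In 36 of 44 members the 95% interval ended below 0.58, against 66.4% of all genes. Both FLAG libraries lay above both WT libraries in 12 members (19.1% of all genes) and below them in 4 (19.9%).

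Psmb5 (chr14:54614119-54618022, minus strand) was the 1 member with an unadjusted p under 0.05 here, against 7.70% of all genes. Its log2 values were 0.25 and 0.35 in FLAG and -0.48 and -0.75 in WT, so that both FLAG libraries lay above both WT libraries. The log2 fold change was 0.91 (SE 0.25, adjusted p = 0.552), at the low level and with the shared windows given above, and it was 0.43 with a pseudocount of 1 added on the linear scale and 0.09 with one of 8. The other catalytic genes lay closer together. Psmb6 had 1.99 and 2.03 in FLAG and 1.83 and 1.80 in WT, and Psmb7 5.47 and 5.42 in both. Psmd10, with a log2 fold change of 0.82 (SE 0.67; 0.24 and 0.04 with these pseudocounts), had FLAG values of -1.74 and -0.47 and WT values of -2.08 and -1.77, and its FLAG replicates were farther apart than the first of them was from WT.

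In native conditions the members leaned toward FLAG, without a call. The median log2 fold change was 0.18, with 31 of 44 above 0 (70.5%, against 47.4% of all genes and a median of -0.04), and the smallest adjusted p of a member was 0.31. None was called higher (0% of all genes) or lower (0.107%), and none had an unadjusted p under 0.05, against 16.7% of all genes. In 14 of 44 members the 95% interval ended below 0.58, against 45.8% of all genes. In no member were all native FLAG values above all native WT values, against 8.62% of all genes. They were all below in 1 member, Psmg4, against 10.8% of all genes.

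Of the 17 subunits of the regulatory particle 13 were above 0. Psmd2 (chr16:20651652-20663414, plus strand), the scaffold of the base and a receptor for ubiquitin and shuttle factors, had log2 values of 4.96, 3.88 and 4.60 in FLAG and 3.75, 4.12 and 3.79 in WT (log2 fold change 0.60, SE 0.29, adjusted p = 0.327). Psmd8 (chr7:29174188-29180701, minus strand), a lid subunit, had 4.05, 3.15 and 3.74 against 3.05, 3.26 and 2.75 (0.63, SE 0.29, adjusted p = 0.31). Psmd3, also of the lid, had 4.53, 3.53 and 4.08 against 3.30, 3.73 and 3.29 (0.60, SE 0.29, adjusted p = 0.323). In these 3 genes FLAG replicates 1 and 3 were above all WT values, and FLAG replicate 2 fell inside the WT range. Psmd4, another ubiquitin receptor of the base, had 3.72, 3.31 and 3.33 in FLAG and 3.33, 3.76 and 3.26 in WT, a log2 fold change of 0.01 (SE 0.24).

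The activators went different ways. Psme1 (PA28 alpha, chr14:55578123-55581529, plus strand) had native log2 values of 1.32, 0.12 and 1.76 in FLAG and 0.09, 0.33 and -0.07 in WT (log2 fold change 0.95, SE 0.49, adjusted p = 0.341), and its partner Psme2 (PA28 beta) had 0.07, -1.13 and 0.87 against 0.59, -0.01 and 0.18 (-0.32, SE 0.58). The nuclear activator Psme3 (PA28 gamma) had 3.92, 3.40 and 4.14 against 3.17, 3.52 and 3.23 (0.51, SE 0.25, adjusted p = 0.331). Psme4 had 6.72, 7.08 and 6.86 against 7.29, 7.01 and 7.11 (-0.25, SE 0.17), and the inhibitor Psmf1 (PI31) had 2.72, 2.97 and 2.53 against 3.01, 2.76 and 3.16 (-0.24, SE 0.25). FLAG and WT overlapped in all 5.

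The native result turned on FLAG native replicate 2. Without that library 7 members were called higher in FLAG, against 9.12% of all genes called higher and 10.8% called lower. They were Psmd2 (log2 fold change 0.90, adjusted p = 0.0239), Psmc3 (0.81, 0.0363), Psmd8 (0.88, 0.0382), Psmd3 (0.86, 0.039), Psmd7 (0.84, 0.04), Psme3 (0.72, 0.046) and Psme1 (1.42, 0.0474), and none was lower. They are 5 of the 17 genes of the regulatory particle (2 of the base and 3 of the lid), 2 of the 5 activator and inhibitor genes and 0 of the 14 core genes. Weighting the libraries by quality, which kept all 6, called 7 genes higher (10.4% of all genes), and all 7 were shared with that list. The weights are estimated from the spread of these same values, and FLAG native replicate 2 had the lowest over the 10 libraries. The shared list is therefore no separate support. With each of the other native libraries left out in turn, 0 members were called, and without FLAG native replicate 1 the members' median was 0.01.

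**Figure D2:**
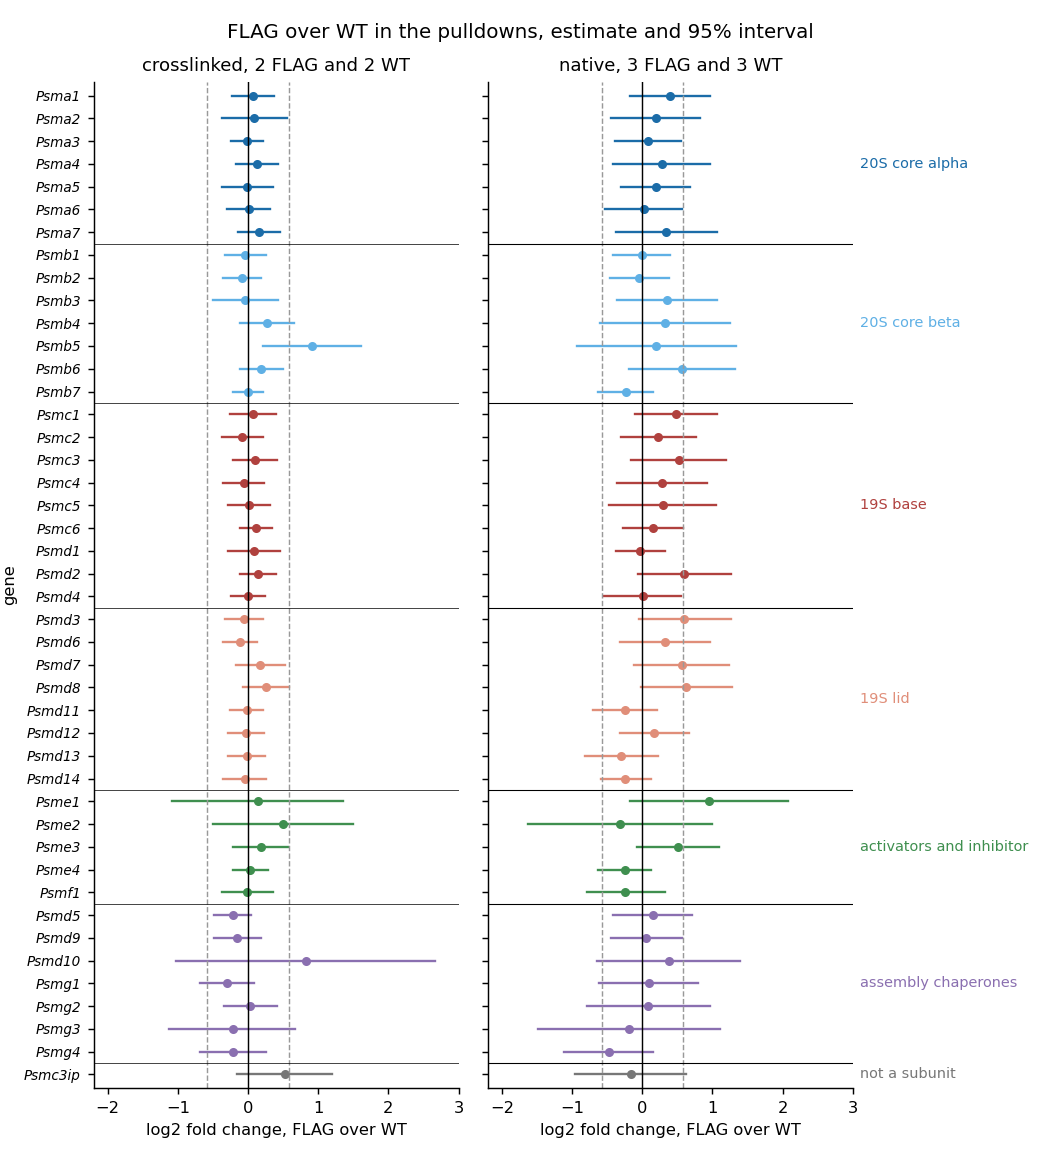
Log2 fold change of FLAG over WT for the 44 genes with crosslinking (left) and in native conditions (right); points are limma estimates, bars are 95% intervals and dashed lines mark 0.58 on either side of 0. The intervals are narrow around 0 with crosslinking apart from low genes such as Psmd10 and Psme1, and in native conditions most points lie to the right of 0 with intervals that cross it.

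With both protocols in 1 fit and a term for protocol, the members' median was 0.11, with 31 of 44 above 0 (46.8% of all genes were above 0). The median was -0.02 with libraries weighted by quality, 0.03 without FLAG native replicate 1, 0.03 over the 22 members with a mean linear value of at least 10, and 0.06 with a pseudocount of 8. None was called higher, against 0.264% of all genes, and none lower, against 0.233%; 3 had an unadjusted p under 0.05, against 21.1% of all genes. These were Psmd8 (log2 fold change 0.48, SE 0.19, adjusted p = 0.196), Psme3 (0.38, SE 0.17, adjusted p = 0.228) and Psmg4 (-0.37, SE 0.15, adjusted p = 0.211). Psmg4, a chaperone of core assembly, had FLAG values of 1.67 and 1.54 with crosslinking and 1.50, 1.31 and 1.47 in native conditions, and WT values of 1.99 and 1.65, and 1.97, 1.78 and 1.96; FLAG was below WT without overlap in native conditions, and not with crosslinking. On the deposited scale the largest positive values were those of the low genes Psme1 (0.63, SE 0.36) and Psmd10 (0.56, SE 0.35), and the largest negative ones after Psmg4 those of Psmg3 (-0.20, SE 0.36) and Psmd13 (-0.19, SE 0.14). With a pseudocount of 1 Psme1 was at 0.38 and Psmd10 at 0.23, below Psmd8 at 0.43 and Psmd2 at 0.39. In 24 of 44 members the 95% interval ended below 0.58, against 63.3% of all genes, so that for the remaining 20 an enrichment of that size was not bounded by these libraries. No member was separated in the same direction in both protocols, upward (4.84% of all genes) or downward (4.47%). Without FLAG native replicate 2 there was still no call over all libraries (3.25% of all genes called higher), and with libraries weighted by quality Psmd10 (1.21, adjusted p = 0.00814) and Psmb5 (0.67, adjusted p = 0.0197) were called higher, against 6.95% of all genes.

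Core and regulatory particle were close in FLAG over WT. With crosslinking the median log2 fold change was 0.04 in the 14 core genes (8 above 0) and 0.00 in the 17 genes of the regulatory particle (8 above 0). In native conditions it was 0.20 (11 above 0) and 0.28 (13 above 0), and over all libraries 0.17 and 0.14. The base had a native median of 0.28 with 8 of 9 above 0 and the lid 0.25 with 5 of 8 above 0. The alpha ring was above 0 in all 7 genes (median 0.19) and the beta ring in 4 of 7 (median 0.20). The core minus the regulatory particle was -0.08 in native conditions, and ran from -0.12 to -0.02 with single libraries left out. That range was 0.01 to 0.11 with crosslinking and -0.04 to 0.06 over all libraries. The difference of the 2 median levels had an SD of 0.17 among libraries of a group, which is not the error of the gap in fold change. The gap was wider in the contrasts that involve the protocol, at 0.10 to 0.21 in size. The median difference between the protocols in FLAG over WT was -0.10 in the core and -0.31 in the regulatory particle, and that of crosslinked against native libraries was -0.23 and -0.07 in WT and -0.40 and -0.49 in FLAG. The gap between the particles in the first of these was 0.21, and 0.03 without FLAG native replicate 3. The core minus the regulatory particle was 0.10 for crosslinked against native FLAG libraries and ran from -0.01 (without FLAG native replicate 3) to 0.15 (without replicate 2) with single libraries left out. In WT it was -0.16, and 0.04 with the length and GC trend removed and the replicate block. These gaps were not tested. The chaperones had a native median of 0.08 and the activator and inhibitor genes one of -0.24.

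Other complexes leaned toward FLAG in the same libraries, also without a call. The median native log2 value of the regulatory particle was 4.05, 3.53 and 4.08 in FLAG and 3.33, 3.70 and 3.33 in WT, with FLAG replicate 2 again inside the WT range. The 8 genes of the chaperonin TRiC had a native median fold change of 0.35 with 8 of 8 above 0, and the 65 genes of cytosolic ribosomal proteins one of 0.53 with 59 above 0; both medians were above the members' 0.18. In these lists 0 genes were called, and 0 of 8 and 5 of 65 had an unadjusted p under 0.05 (16.7% of all genes). The native fold change also followed how much of a gene is exon. With coding genes split into 5 bins of equal size by exonic share, its median ran from -0.31 in the bin with the lowest share (up to 6.9%) to 0.41 in the highest (above 36.9%), and over the members from -0.04 (7 genes) to 0.43 (10 genes). With the trend on exonic share removed from each library, an alternative chosen after seeing the data, the members' median was 0.14 in native conditions, 0.03 with crosslinking and 0.10 over all libraries, in place of 0.18, 0.02 and 0.11.

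**Figure D3:**
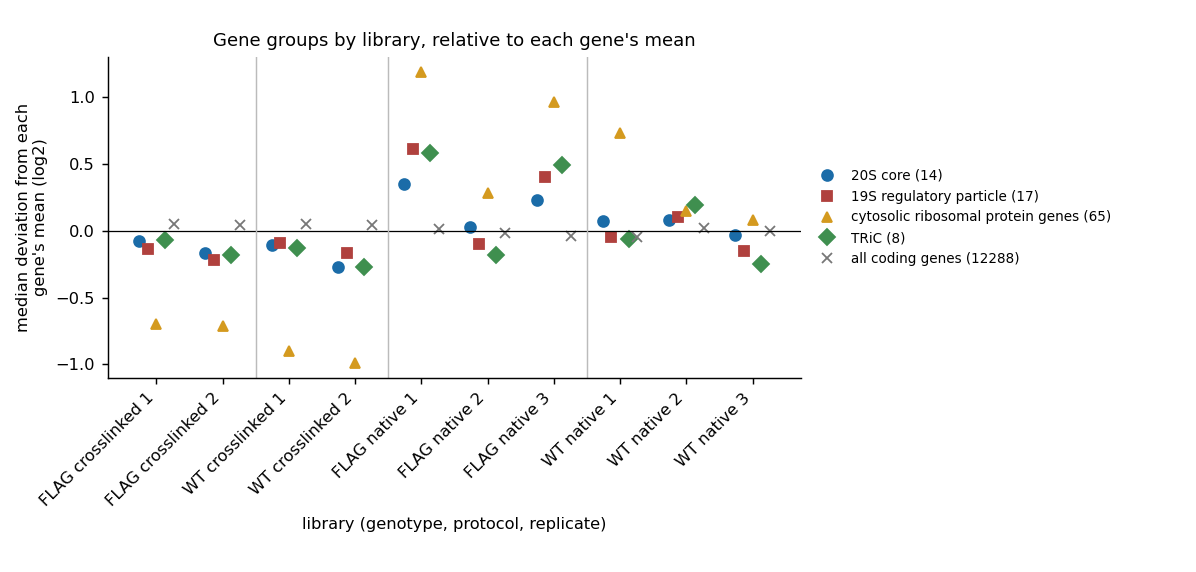
Median deviation of each gene group from its genes' own means over the 10 libraries (y axis, log2), by library. The regulatory particle and TRiC reach 0.61 and 0.58 in FLAG native replicate 1, 0.40 and 0.49 in replicate 3 and -0.10 and -0.18 in replicate 2, and the ribosomal protein genes lie below 0 in all 4 crosslinked libraries and above 0 in all 6 native ones.

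The difference between the protocols in FLAG over WT, crosslinked minus native, had a median of -0.13 over the members, with 12 of 44 above 0 (53.2% of all genes were above 0). With single libraries left out this median ran from -0.29 to -0.08. No member was called (0% of all genes), none had an unadjusted p under 0.05 (0.428% of all genes), and the adjusted p was at least 0.97 for each. On the deposited scale the largest values were -0.81 (SE 0.74) for Psme1, 0.81 (SE 0.82) for Psme2, 0.71 (SE 0.69) for Psmb5, 0.69 (SE 0.46) for Psmc3ip and -0.66 (SE 0.39) for Psmd3. The intervals of most members are wide, and in 22 of 44 the upper bound lay below 0.58 (21.2% of all genes).

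A further question the design allows is how formaldehyde changed what the beads retained, in the untagged and in the tagged cultures, which are separate libraries. Each of these contrasts shares libraries with the comparisons of FLAG and WT above. In WT the members were lower after crosslinking by a median of 0.13 on the log2 scale (a median of -0.13, with 15 of 44 above 0, against 53.1% of all genes), and in FLAG the median was -0.29 (13 of 44 above 0, against 59.1% of all genes), while the medians over all genes were 0.02 and 0.11. No member was called lower, against 0.289% of all genes in WT and 0.396% in FLAG, and none higher, against 0.044% in each; 5 members in WT and 14 in FLAG had an unadjusted p under 0.05, against 7.48% and 15.4% of all genes. Of the 44 members, 13 had every crosslinked library below every native library in WT and again in FLAG, 29.5% of the members against 6.92% of all genes, and 2 lay above in both (Psmc6 and Psmd14, against 8.30%). Leaving out single libraries moved the median in WT between -0.24 (without WT native replicate 3) and -0.10 (without WT crosslinked replicate 2), and in FLAG between -0.49 and -0.15 (without FLAG native replicates 2 and 1). Over the 22 members with a mean linear value of at least 10 the median was -0.03 in WT and -0.18 in FLAG. Deviations of same-numbered crosslinked and native libraries correlated at 0.178 and 0.154 in FLAG and at 0.30 and 0.388 in WT. Libraries of different number reached 0.232 in WT (crosslinked 1 with native 3) and 0.401 between genotypes (FLAG native 2 with WT native 3). With the replicate number as a block, the genes called lower fell to 0 in WT and 10 in FLAG from 46 and 63. The block also takes degrees of freedom, and what made the calls fall was not tested. The members' medians were then -0.14 and -0.33 with 0 members called. In that fit 6 and 8 members had an unadjusted p under 0.05, against 938 and 1661 of 15899 genes. Protocol and the handling of the libraries within it cannot be told apart.

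The 13 genes came from every particle: Psma5, Psma7, Psmb4 and Psmb6 of the core, Psmc1, Psmc2, Psmc3 and Psmd2 of the base, Psmd7 and Psmd8 of the lid, the activators Psme1 and Psme3, and the chaperone Psmd10. Psmd10 (chrX:140948429-140956728, minus strand) had the largest difference in WT on the deposited scale, with log2 values of -2.08 and -1.77 after crosslinking and 0.30, -0.14 and 0.55 in native pulldowns (difference -2.17, SE 0.54, adjusted p = 0.181). In FLAG it had -1.74 and -0.47 against 0.62, 0.08 and 1.16 (-1.73, SE 0.54, adjusted p = 0.196). The groups did not overlap in either genotype. At this low level the differences shrank to -0.79 and -0.78 with a pseudocount of 1 and to -0.15 and -0.17 with one of 8. The largest difference in WT was then that of Psmb4, at -0.98 and -0.40.

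Psme1 had the largest difference in FLAG on the deposited scale, with -1.23 and -0.58 after crosslinking and 1.32, 0.12 and 1.76 in native pulldowns (-1.97, SE 0.52, adjusted p = 0.137); in WT it had -0.86 and -1.23 against 0.09, 0.33 and -0.07 (-1.16, SE 0.52). With a pseudocount of 1 these were -1.04 and -0.49, and with one of 8 -0.27 and -0.10. The caspase-like subunit Psmb6 had 1.99 and 2.03 against 3.43, 2.72 and 3.87 in FLAG (-1.33, SE 0.32, adjusted p = 0.114). In WT it had 1.83 and 1.80 against 3.14, 2.63 and 2.56 (-0.96, SE 0.32). Its difference in FLAG was -1.15 and -0.61 with pseudocounts of 1 and 8, larger than that of Psme1 under both. Both genes were separated by protocol in both genotypes. The noncatalytic beta subunit Psmb4 differed by -1.24 (SE 0.41) in WT and -1.30 (SE 0.41) in FLAG, and the lid subunit Psmd8 by -0.75 (SE 0.28) and -1.12 (SE 0.28, adjusted p = 0.116).

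The deubiquitinase Psmd14 went the other way. It had 6.83 and 6.61 after crosslinking and 6.60, 6.51 and 6.37 in native WT pulldowns, the lower crosslinked value lying just above the highest native one (0.23, SE 0.14), and 6.70 and 6.65 against 6.22, 6.37 and 6.18 in FLAG (0.42, SE 0.14, adjusted p = 0.22). Psmc6, an ATPase of the base, differed by 0.31 (SE 0.15) and 0.27 (SE 0.15). Psmb7 differed by -0.08 (SE 0.15) and 0.16 (SE 0.15). Psme4 differed by 0.01 (SE 0.15) in WT and by 0.29 (SE 0.15) in FLAG, where both crosslinked libraries lay above the 3 native ones.

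**Figure D4:**
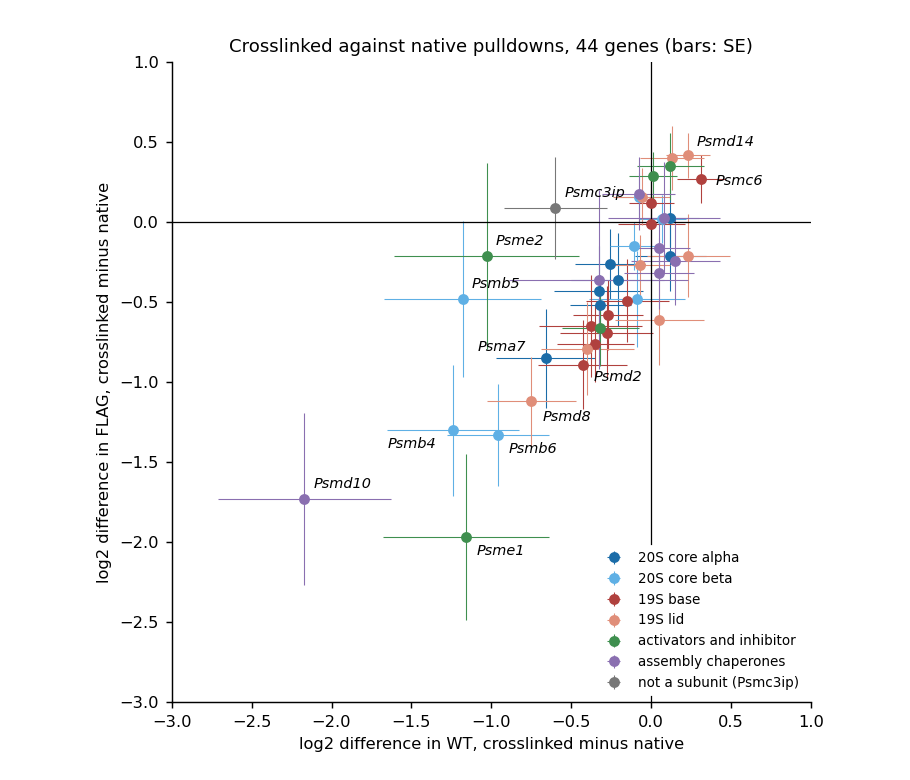
Log2 difference of crosslinked minus native libraries in WT (x axis) and FLAG (y axis) for the 44 genes, with standard errors. Psmd10, Psme1, Psmb4, Psmb6 and Psmd8 lie at -0.75 or below in both genotypes, and Psmd14 and Psmc6 lie above 0 in both.

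Across the members the differences in WT and FLAG, from separate libraries, had a Spearman's rho of 0.75, and over 12276 coding genes 0.49. The difference rose with the length of the gene body over the members (rho 0.63 in WT and 0.61 in FLAG), while over coding genes rho was -0.09 and 0.29. In the bin with the highest exonic share the 10 members had a median of -0.71 in WT and -0.75 in FLAG, where the coding genes of that bin had 0.10 and -0.19. With the trend on exonic share removed, the members' medians were -0.21 in WT and -0.35 in FLAG. The ribosomal protein genes, shorter and more exonic than the members at the median (gene body 3289 against 12462 bp, exonic share 53.2% against 21.9%), differed by more: their medians were -1.34 in WT and -1.51 in FLAG, with 9 and 12 of 65 called lower. With the replicate block the calls fell to 0 and 2, at medians of -1.32 and -1.52.

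**Figure D5:**
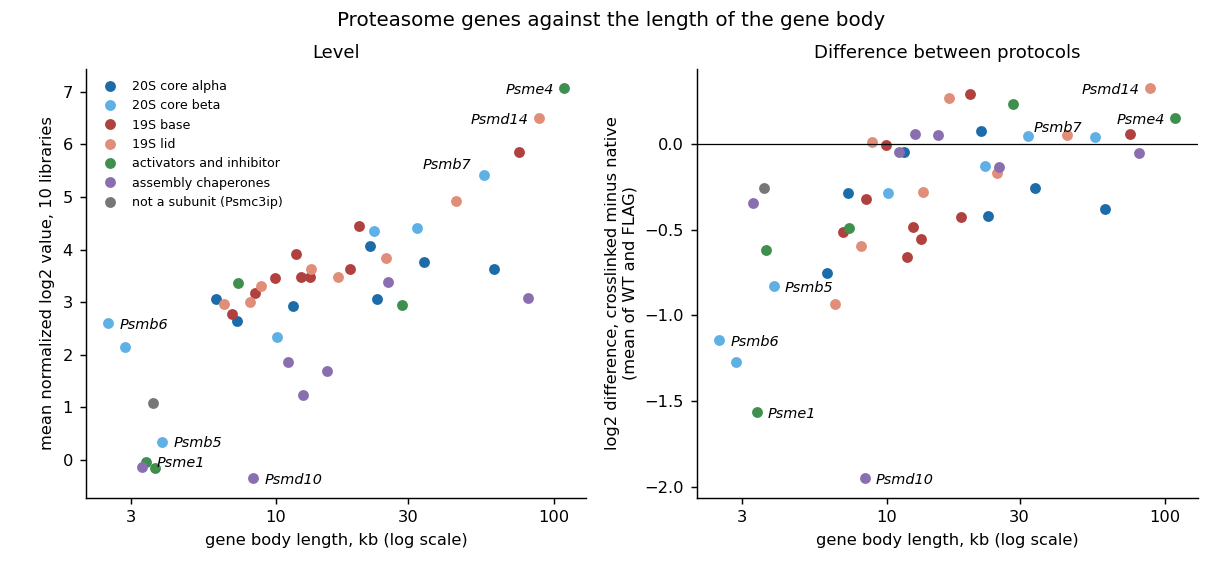
Mean normalized log2 value over the 10 libraries (left) and log2 difference of crosslinked minus native libraries averaged over WT and FLAG (right) against gene body length in kb on a log axis, for the 44 genes. Psme4 and Psmd14, of 108636 and 88683 bp, are at the top of the left panel, and the short genes Psme1, Psmb4 and Psmb6 with Psmd10 are at the bottom of the right one.

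FLAG native replicate 2 decided the calls of this contrast in FLAG as well. Without it 15 members were called lower after crosslinking, 34.1% of the members against 9.08% of all genes called lower and 7.57% called higher. They were Psma5 and Psma7, Psmb4 and Psmb6, Psmc1, Psmc3, Psmc4, Psmc5 and Psmd2, Psmd3, Psmd7 and Psmd8, Psme1, Psme3 and Psmd10. The differences ran from -0.60 (Psma5, adjusted p = 0.048) to -2.44 (Psme1, adjusted p = 0.0101), with Psmb6 at -1.64 (adjusted p = 0.00716) and Psmd2 at -1.19 (adjusted p = 0.00763). With libraries weighted by quality, 10 members were called lower in FLAG (5.69% of all genes, with 3.67% called higher) and 4 in WT (2.67%): Psmb4, Psmb6, Psmd8 and Psmd10.

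Genes that serve the proteasome without carrying its name gave no call either. Of 27 such genes on the list that were measured (ubiquitin receptors and shuttles, assembly factors, ubiquitin genes and regulators), 0 were called higher or lower in FLAG with crosslinking, in native conditions or over all libraries, and 9 had an unadjusted p under 0.05 over all libraries (21.1% of all genes); their median log2 fold change over all libraries was 0.09 with 20 above 0. Nfe2l1, the transcription factor that raises proteasome genes when the proteasome is impaired, had log2 values of 3.64 and 3.79 in FLAG and 3.42 and 3.43 in WT with crosslinking, and 4.33, 4.18 and 4.85 against 3.58, 4.10 and 3.62 in native conditions. The FLAG values were higher without overlap in both protocols (log2 fold change over all libraries 0.53, SE 0.17, adjusted p = 0.138). Adrm1, a ubiquitin receptor of the regulatory particle that the name pattern misses, had a log2 fold change over all libraries of -0.12 (SE 0.25), and Pomp, which matures the core, one of 0.07 (SE 0.12).

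Usp14 and Ubqln2 were picked out of the same list after their values were seen. Usp14, a deubiquitinase that docks on the regulatory particle, had 5.53 and 5.57 in FLAG and 4.92 and 4.95 in WT with crosslinking, and 5.44, 5.33 and 5.07 against 4.91, 4.79 and 4.91 in native conditions (0.49 over all libraries, SE 0.10, adjusted p = 0.0728). Ubqln2, which carries ubiquitinated proteins to the proteasome, had 2.92 and 2.77 against 1.57 and 1.46, and 4.87, 2.84 and 4.69 against 3.28, 2.89 and 2.82 (1.21, SE 0.33, adjusted p = 0.115). Usp14 was separated by genotype in both protocols and Ubqln2 with crosslinking, while FLAG native replicate 2 lay inside the WT range for Ubqln2.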

How the data were processed

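The authors trimmed the RIP-seq reads, aligned them by HISAT2 (GRCm38) and counted them by gene in featureCounts on GENCODE M16, then normalized counts with DESeq2 per their methods; limma is in the submitters' processing notes. The deposited file holds log2 values of 15899 genes in 10 libraries. Linear sums (949426 to 949436 per library) are nearly equal, so depth and counting error are unknown and no count model was fitted. The authors describe biological replicates.

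Groups came from the labels. Differences were tested on the deposited log2 values with limma 3.58.1 (R 4.3.3; lmFit, eBayes with a trend; Benjamini-Hochberg over all genes), within each protocol, over all libraries with protocol as covariate, and in a fit of 4 groups. On simulated data, of 200 genes changed by a log2 value of 2 among 15899, 0 were recovered with crosslinking (0 false calls), 123 in native conditions (6 false) and 181 over all libraries (12 false). The simulated spread of each gene was pooled over the 4 groups. The crosslinked libraries had quality weights of 1.571 to 2.799 and the native ones 0.1889 to 2.067, a higher weight meaning less spread. The simulation therefore does not show what the crosslinked comparison could call. Annotation was GENCODE M21, which held 42 of the 44 members at the deposited coordinates; exonic share is the exonic length over the M21 gene span. The motif was matched as letters. Some cell type markers of the original lists are not reported here.

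Members and lists were chosen with earlier results of these data known. Named were members called in any comparison, the 3 largest changes in each direction over all libraries, the catalytic, ubiquitin-handling and activator genes, Psmf1, Psmc3ip, Nfe2l1, Adrm1 and Pomp. Other members were named after their values were seen. Alternatives were pseudocounts of 1 and 8, a mean linear value of at least 10, recomputed size factors or quantiles, trends on length, GC or exonic share removed, no variance trend, library weights, the replicate block and each library left out.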

Additional observations from a re-analysis of the deposited data

How the results depend on the processing

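The count of members called was 0 in each comparison and under each alternative, apart from library weights and the fits without FLAG native replicate 2. With library weights, FLAG over WT had 7 members called higher in native conditions and 2 over all libraries, and crosslinked against native had 4 called lower in WT and 10 in FLAG. Leaving out single libraries gave 0 to 7 members called higher in native FLAG over WT and 0 to 15 called lower in crosslinked against native FLAG, the upper ends without FLAG native replicate 2; the cause was not tested. Over the same fits the members' median ran from 0.01 to 0.29 in native FLAG over WT, from -0.49 to -0.15 for crosslinked against native in FLAG, from -0.24 to -0.10 for the same in WT, from 0.03 to 0.19 over all libraries (without FLAG native replicates 1 and 2) and from -0.02 to 0.06 in crosslinked FLAG over WT, and the core minus the regulatory particle in the difference between protocols from 0.03 to 0.34. The median over all libraries was 0.11 and ran from -0.02 (library weights) to 0.15 (recomputed size factors) under the other settings; in WT, crosslinked against native, it ran from -0.21 to -0.03. In single members 293 of 4664 refitted values changed sign, 9 of them among those over 0.3 in the fit as reported, and none of these was called.

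Same-numbered FLAG and WT libraries did not deviate together (correlation -0.274 with crosslinking, and -0.149, -0.43 and -0.167 in native conditions). With the replicate block the native median stayed at 0.18 with 0 members called, and no member was called in any other comparison. Over all genes the block lowered the calls: FLAG over WT over all libraries had 14 higher and 20 lower in place of 42 and 37, and crosslinked against native 2 higher and 0 lower in WT in place of 7 and 46, and 2 and 10 in FLAG in place of 7 and 63. Same-numbered crosslinked and native libraries correlated at 0.154 to 0.388 in their 4 pairs, and libraries of different number at up to 0.401 (FLAG native 2 with WT native 3). The labels do not say what a number shares. With the length and GC trend removed as well, core minus regulatory particle in WT, crosslinked against native, was 0.04 in place of -0.16. The crossed pairing of the crosslinked libraries, chosen after seeing the data, called 0 members and 0 genes. Depth is unknown, so that for low genes such as Psmd10, Psme1 and Psmb5 the counting error could not be given, and a pseudocount of 1 or 8 shrank their changes.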
